A study of Mus musculus with 7 samples.

Results

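The positions described here are Argonaute crosslinks in exons of neonatal mouse retina with a seed match of miR-128-3p, miR-135a-5p, miR-137-3p, miR-204-5p or miR-218-5p within 20 nt. They were chosen by sequence: the 20 nt on either side of the crosslinked base, read along the spliced transcript, had to hold a 7mer-m8 match, the reverse complement of microRNA bases 2 to 8. By this rule 294 of 14054 crosslink positions were members, with 299 matches in 262 genes. Of the table's positions, 10992 lay in exons of GENCODE M21 on the same strand (mm10) and 10949 had a full window, so members made up 2.69% of the windows that could be searched. The other 10655 windows held no match of the 5 families and are called other exonic positions below.

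The data come from PAR-CLIP: cells take up 4-thiouridine into their RNA, long-wave ultraviolet light links it to a protein in contact with it, and the protein is immunoprecipitated with its RNA. There were 5 Argonaute libraries, made with the antibody 2A8, and 2 IgG control libraries, all from CD-1 mouse retinas taken at postnatal day 0. Every library, controls included, came from 6 pooled retinas kept as explants for 24 h with 0.1 mM 4-thiouridine and 20% horse serum, then irradiated at 365 nm with about 300 mJ/cm2, trimmed with micrococcal nuclease and cut from a gel at 100 to 150 kDa, with cDNA of 80 to 150 nt taken into sequencing. The deposited table pools the Argonaute libraries and gives for each position only the number of libraries that share it, from 2 to 5. Values of single libraries and of the IgG libraries were not analysed here, so nothing was tested against the spread between replicates, and the read depth behind a position is unknown. Neither positions nor genes stand for replicates, and counting error is all that the 95% intervals cover. Because a position needs RNA in at least 2 libraries, more RNA, more cells of a type and more Argonaute on the RNA cannot be told apart. All 7 pan-neuronal marker genes had a crosslink, as did 5 of 6 progenitor, 3 of 5 photoreceptor and 2 of 3 amacrine, ganglion and horizontal cell markers each, against 0 of 5 for pigment epithelium, 0 of 3 for microglia, 0 of 2 for lens and 1 of 3 for vessels.

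A microRNA guides Argonaute by pairing its seed, near its 5′ end, with sites that lie mostly in the 3′ UTRs of messenger RNAs, and the bound message is then repressed and degraded. Sites that match bases 2 to 8 and carry an A opposite base 1 (8mers) are as a rule stronger than 7mers. miR-128, miR-137 and miR-218 are known from neurons, miR-135a from the developing brain, and miR-204 from the eye, where pigment epithelium, lens and neural retina make it.

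The mature sequences set what was searched for, and are shown with the seed, bases 2 to 8, in capitals (RefSeq, GRCm38.p6).
miR-128-3p: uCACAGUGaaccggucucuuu
miR-135a-5p: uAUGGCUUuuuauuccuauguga
miR-137-3p: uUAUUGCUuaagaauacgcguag
miR-204-5p: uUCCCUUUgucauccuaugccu
miR-218-5p: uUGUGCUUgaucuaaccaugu

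The sites that pair with these seeds were searched on the transcript strand. The miR-128 site, CACTGTG, was in 83 windows (0.758% of 10949), the miR-135a site, AAGCCAT, in 70 (0.639%), the miR-137 site, AGCAATA, in 30 (0.274%), the miR-204 site, AAAGGGA, in 85 (0.776%) and the miR-218 site, AAGCACA, in 30 (0.274%). No seed is shared among the 5, but the miR-204 seed is also that of miR-211, so the members of that family cannot be assigned to miR-204 alone. Other microRNAs with the seeds of the remaining families were not listed here. A family name therefore stands for a seed match, and not for a single microRNA shown to be bound. The miR-128 site followed by A also holds ACTGTGA, the site of miR-27, whose seed is the miR-128 seed moved by 1 base.

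Because a crosslink in PAR-CLIP marks a base that touched Argonaute, the place of a match relative to it was the main readout that the rule did not fix. Places are given as the start of the match in nt after the crosslinked T; a match clear of that T starts at 1 to 14 or at -20 to -7, which is 14 starts on either side. The side of the match passed the test for miR-204. Of its 85 matches, 69 started after the crosslink, 16 ended before it and 0 covered it, so that 81.2% of the clear matches (exact interval 71.2 to 88.8) lay after it (two-sided exact binomial test, p = 5.24e-09, q = 2.62e-08 over 5 families). By count, 38 of the 85 started at exactly 1 nt after the crosslink, so the crosslinked T was the base just before the match, opposite guide base 9. miR-135a had 43 matches after and 24 before (64.2%, 51.5 to 75.5, q = 0.0678), and 20 of its 70 matches started at 1 nt. miR-128 had 38 after and 22 before (63.3%, 49.9 to 75.4, q = 0.0865), with 24 more covering the crosslinked base and 12 starting at 1 nt. miR-137 had 12 after and 15 before (44.4%, 25.5 to 64.7, q = 0.856), and miR-218 had 16 after and 14 before (53.3%, 34.3 to 71.7, q = 0.856). The exact binomial tests of these 4 families did not pass the adjusted threshold of 0.05. Among the alternatives, the miR-135a share ran from 41.2% at positions in 3 or more libraries (7 of 17, q = 0.786) to 75.8% with 10 nt searched (q = 0.00759), and it also passed with positions within 20 nt merged (66.1%, q = 0.0378), with 1 position per gene (66.7%, q = 0.0409) and without windows that hold a frequent family (72.2%, q = 0.00374). The miR-128 share ran from 59.0% without members that hold a miR-27 match (q = 0.561) to 88.9% with 10 nt searched (q = 0.000123), and was 63.0% without windows that hold a frequent family (q = 0.413) and 65.5% with positions merged (q = 0.0412). The frequent families are 17 others searched in the same windows. miR-124 was not among them, so windows with its site were kept in every setting without a frequent family.

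**Figure D1:**
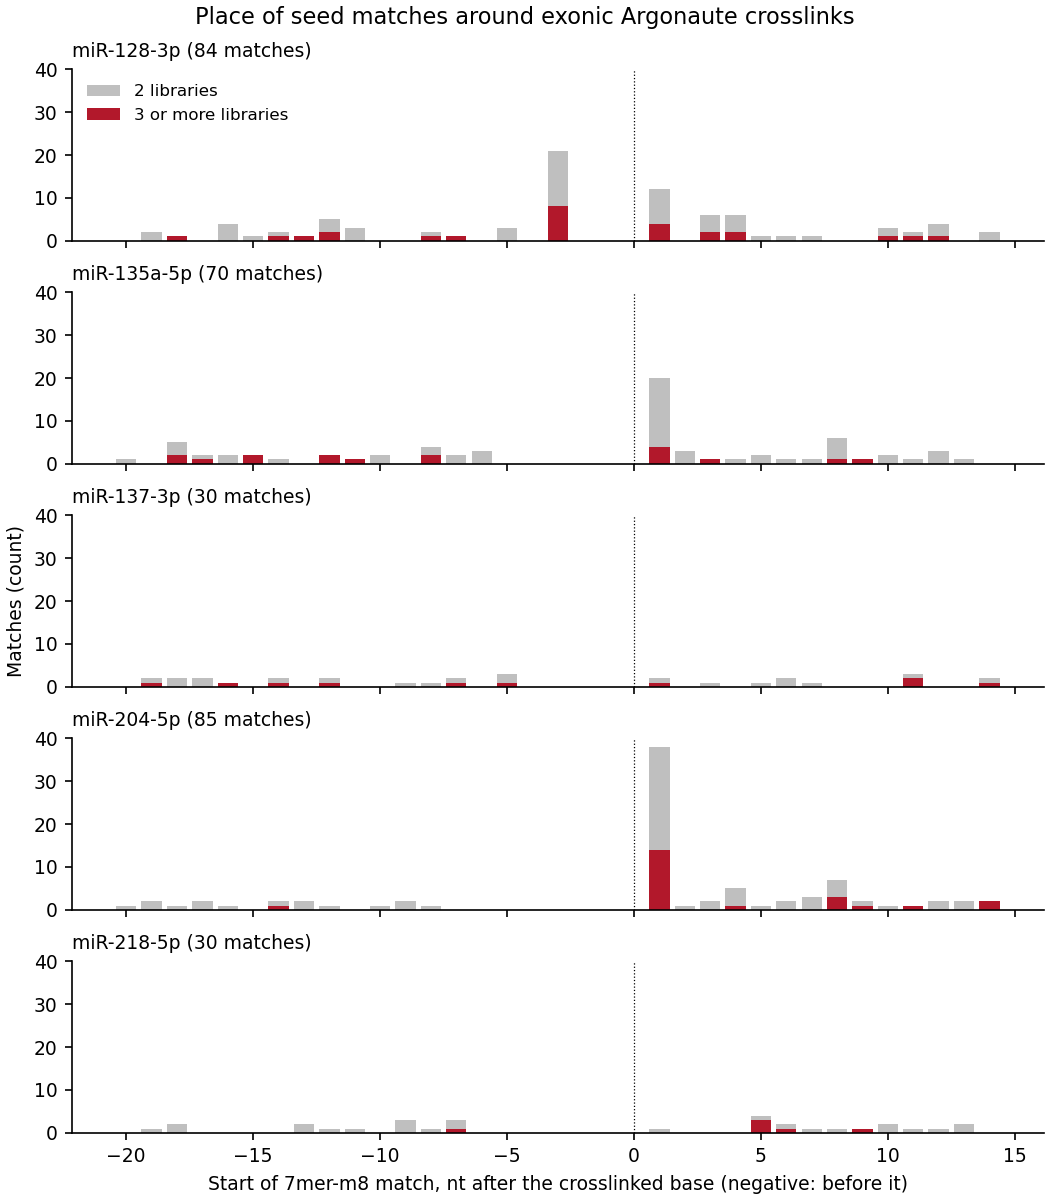
Number of matches (y axis, count) at each start in nt after the crosslinked base (x axis, negative before it) for the 5 families, with positions in 3 or more libraries in red and in 2 libraries in grey. A single start at 1 nt holds 38 miR-204 and 20 miR-135a matches, miR-128 has its highest bar at -3 with 21, and miR-137 and miR-218 have at most 3 and 4 at any start.

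Sequence just outside the window gave a level to read these counts against. It was looked at after the counts were known, in the 10793 exonic windows that reached 40 nt on either side, and is given without a test. Over the 40 starts beyond the window, from -40 to -21 and from 15 to 34, every site was counted and averaged per start. In these windows the miR-204 site occurred 33 times at 1 nt after the crosslink, against 1.23 times per start outside. The miR-135a site occurred 20 times at 1 nt, against 1.18 outside, and the miR-128 site 11 times, against 1.63. For miR-137 the count at 1 nt was 2, against 1.25 outside, and for miR-218 it was 1, against 0.8. Over all 28 clear starts, in the 10949 windows, miR-137 had 27 matches and miR-218 had 30. Per start this was below the level outside for miR-137 and a little above it for miR-218. No start outside the window held more than 4 matches of any of the 5 families. By side, the starts outside held 19 miR-135a sites before the crosslink and 28 after it, and 20 and 29 of miR-204. The counts were 37 and 28 for miR-128, 30 and 20 for miR-137 and 15 and 17 for miR-218. Sides were thus not equal outside the window either, with more after the crosslink for miR-135a and miR-204. The binomial tests of side took equal sides as their null and did not allow for this. At the edge of the window itself, the last start inside (14 nt) held 2, 0, 2, 2 and 0 matches of miR-128, miR-135a, miR-137, miR-204 and miR-218 and the first start outside (15 nt) held 3, 3, 0, 1 and 0.

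A match that starts 0 to 3 nt after the crosslink is called near below; since none of the 5 sites begins with T, only the starts 1 to 3 can occur, which are 10.7% of the 28 clear starts. The near share was 48.2% for miR-204 (41 of 85, 37.3 to 59.3), 34.3% for miR-135a (24 of 70, 23.4 to 46.6), 21.4% for miR-128 (18 of 84, 13.2 to 31.7), 10% for miR-137 (3 of 30, 2.11 to 26.5) and 3.33% for miR-218 (1 of 30, 0.0844 to 17.2). Of the 10 pairs of families, 6 differed in this share (two-sided Fisher's exact tests, adjusted over the 10 pairs). miR-204 was above miR-128 (odds ratio 3.39, 1.66 to 7.13, q = 0.00117), miR-137 (8.25, 2.28 to 45.7, q = 0.000781) and miR-218 (26.5, 4.01 to 1130, q = 4.08e-05). miR-135a was above miR-137 (odds ratio 4.64, 1.23 to 26.3, q = 0.0275) and miR-218 (14.9, 2.18 to 643, q = 0.0019), and miR-128 was above miR-218 (7.82, 1.13 to 341, q = 0.0376). The pairs that did not pass were miR-204 and miR-135a (odds ratio 1.78, 0.887 to 3.62, q = 0.128), miR-135a and miR-128 (1.91, 0.879 to 4.19, q = 0.128), miR-128 and miR-137 (2.44, 0.633 to 13.97, q = 0.3015) and miR-137 and miR-218 (3.16, 0.238 to 175, q = 0.612). The miR-128 site holds T and can cover the crosslink, as 24 of its matches did, while the miR-204 and miR-218 sites cannot. Over clear matches alone, a setting chosen after the data were seen, the near share was 48.2% for miR-204 (41 of 85), 35.8% for miR-135a (24 of 67), 30.0% for miR-128 (18 of 60), 11.1% for miR-137 (3 of 27) and 3.33% for miR-218 (1 of 30). In this setting miR-204 over miR-128 no longer passed (odds ratio 2.16, 1.03 to 4.67; Fisher's exact test, p = 0.0391, q = 0.0651), and the 5 other pairs named as differing still did.

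A comparison with miR-9 and let-7, abundant microRNAs of neural tissue, was added after the data were seen. Of 250 miR-9 matches, 71.6% were near, and of 231 let-7 matches, 78.4%. Each of the 5 families was below both (two-sided Fisher's exact tests, adjusted over 10 comparisons), also over clear matches alone, with the smallest gap for miR-204, whose odds ratio was 0.371 against miR-9 (0.216 to 0.634, q = 0.000123) and 0.259 against let-7 (0.147 to 0.452, q = 7.97e-07). The share after the crosslink was 81.2% for miR-204, beside 84.8% for miR-9 and 89.6% for let-7, and these shares were not compared by a test.

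**Figure D2:**
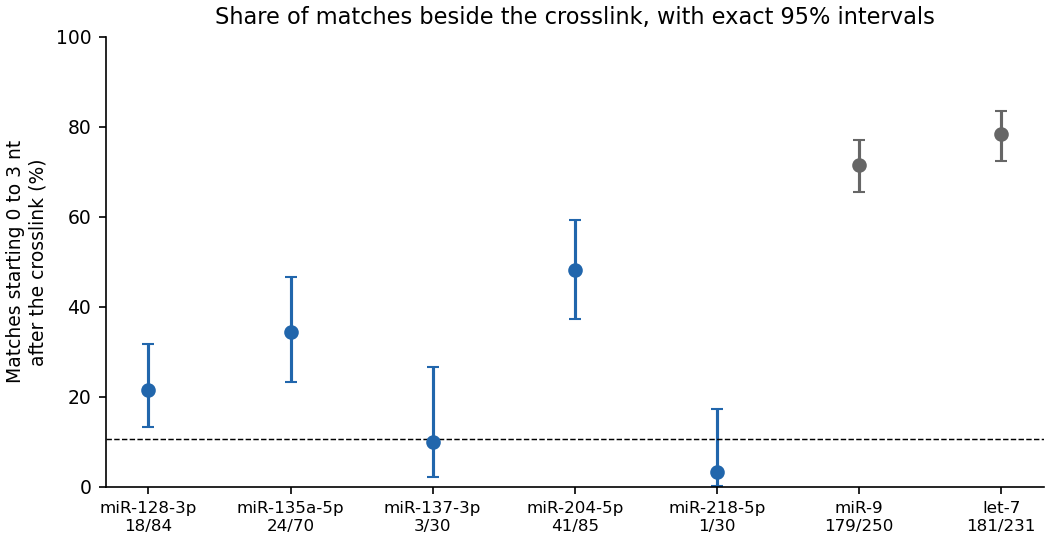
Share of matches that start 0 to 3 nt after the crosslink (y axis, percent) for the 5 families and for miR-9 and let-7, with exact 95% intervals and counts under the names; the dashed line is the 10.7% of clear starts that are near, while the plotted shares are of all matches, those that cover the crosslink included. miR-204 at 48.2%, miR-135a at 34.3% and miR-128 at 21.4% (13.2 to 31.7) lie above the line with their whole interval, miR-137 at 10% and miR-218 at 3.33% do not, and miR-9 and let-7 lie highest.

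For none of the 5 families did recurrence across libraries pass the test. The share of positions in 3 or more libraries was 31.3% for miR-128 (26 of 83), 24.3% for miR-135a (17 of 70), 33.3% for miR-137 (10 of 30), 27.1% for miR-204 (23 of 85) and 20.0% for miR-218 (6 of 30), against 29.6% of the 10655 other exonic positions and 29.6% of all 10949. Odds ratios against the other exonic positions ran from 0.594 for miR-218 (0.198 to 1.49) to 1.19 for miR-137 (0.496 to 2.66), with q = 0.7205 for each (two-sided Fisher's exact tests). With 1 position per gene, 4 of the families were below other exonic positions (odds ratios of 0.317 for miR-218, 0.481 for miR-135a, 0.491 for miR-204 and 0.586 for miR-128, q from 0.0206 to 0.0382), a setting in which the highest of all positions stands for each other gene. None of the 10 pairs of families passed the test either (Fisher's exact tests, q = 0.8235 for each). Positions in all 5 libraries numbered 7 for miR-128, 2 for miR-135a, 2 for miR-137, 6 for miR-204 and 0 for miR-218, whose positions reached at most 3. The share in 3 or more libraries was 41.8% at the 249 miR-9 positions and 46.1% at the 228 let-7 positions, given without a test.

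**Figure D3:**
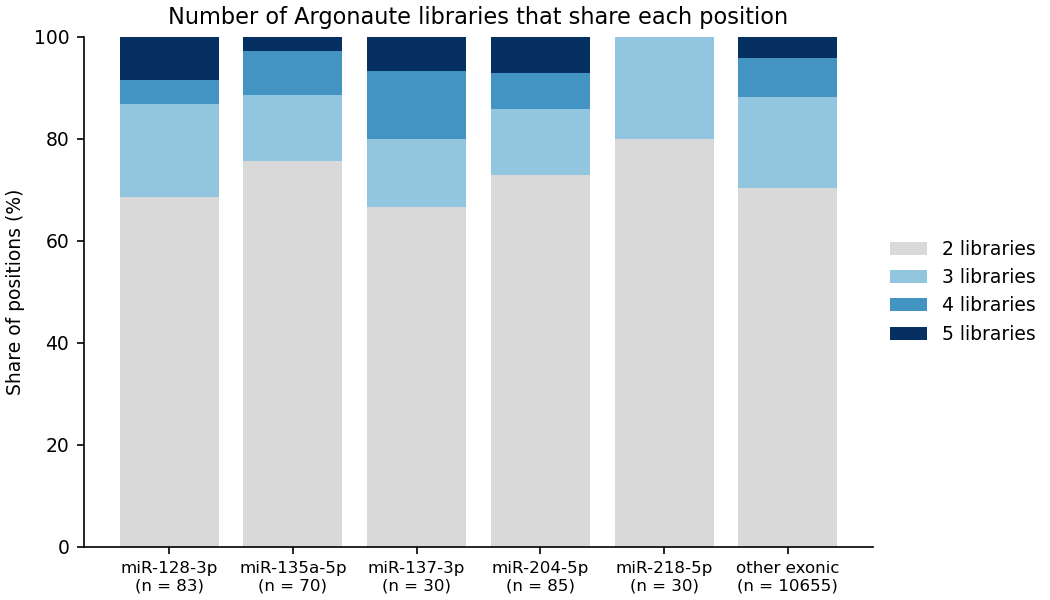
Share of positions (y axis, percent) found in 2, 3, 4 or 5 Argonaute libraries, for each family and for other exonic positions, with the number of positions under the names. From 20.0% to 33.3% of each family's positions were in 3 or more libraries, against 29.6% of other exonic positions.

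The most recurrent miR-204 positions had the match beside the crosslink. All 6 miR-204 positions in 5 libraries lay in 3′ UTRs with the match starting 1 nt after the crosslinked T. They were in Ssrp1, a subunit of the FACT histone chaperone, Ssr3, a subunit of the translocon-associated complex of the endoplasmic reticulum, Rreb1, a zinc finger transcription factor, Tcf12, an E protein that pairs with proneural factors, Scrt2, a zinc finger repressor of newborn neurons, and N4bp2, a Nedd4-binding protein. The sites show how alike the places are: in each 27 nt the match is in capitals and base 7, a T, is the crosslink.
N4bp2 site of miR-204: aaacattAAAGGGAatttttattaatt
Rreb1 site of miR-204: tttttctAAAGGGAacttaaaaactgc
Ssr3 site of miR-204: tttctgtAAAGGGAaatattactaata
Ssrp1 site of miR-204: atttaatAAAGGGAaatgactttggaa
Tcf12 site of miR-204: tacatatAAAGGGAaaagttcatgtgg
Scrt2 site of miR-204: ggatattAAAGGGActttggccactca

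Of these 6 sites, 5 had an A after the match and were 8mers, and that of Scrt2 was a 7mer. The crosslinks lay at 65826843 on chromosome 5 in N4bp2 (ENSMUSG00000037795.14), 37951810 on chromosome 13 in Rreb1 (ENSMUSG00000039087.17), 65380795 on chromosome 3 in Ssr3 (ENSMUSG00000027828.12), 85047088 on chromosome 2 in Ssrp1 (ENSMUSG00000027067.16), 71846178 on chromosome 9 in Tcf12 (ENSMUSG00000032228.16) and 152095782 on chromosome 2 in Scrt2 (ENSMUSG00000060257.2), all in the last exon. In Scrt2 and Ssrp1 the crosslink was close to the end of the annotated 3′ UTR, at 1918 of 1938 nt and 374 of 395 nt, while in Tcf12 it was near the start, at 394 of 3884 nt. A match of the 17 frequent families searched was in 1 of the 6 windows, that of Tcf12 (miR-27, not beside the crosslink). Further miR-204 matches at 1 nt were in 4 libraries in Acvr1b, a type I activin receptor, Smc2, a condensin subunit, and Ccdc50, and in 3 libraries in Cox5a, a cytochrome c oxidase subunit, Hspa4l, a chaperone, Rab1a, a small GTPase of secretion, and the transcription factors Klf12 and Zbtb20. As in Scrt2 and Ssrp1, the crosslink was close to the end of the annotated 3′ UTR in Cox5a, at 131 of 155 nt. The same held for Slc39a11 (1543 of 1564 nt) and Zfp629 (2981 of 3001 nt), both in 2 libraries with the match at 1 nt. Of the 38 miR-204 matches at 1 nt, 33 were in windows that reached 40 nt on either side within the transcript, as did 10793 of all 10949 exonic windows. Whether nearness to the end of the transcript bears on these crosslinks was not tested. These genes were named after their values were seen.

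Over the whole family, 34.1% of near miR-204 positions (14 of 41) and 20.5% of those with the match elsewhere (9 of 44) were in 3 or more libraries, a difference that missed the threshold (odds ratio 2.00, 0.686 to 6.10; Fisher's exact test, p = 0.222, q = 1). The odds ratio was 5.22 without windows that hold a frequent family (p = 0.0117, q = 0.0583), 4.84 among 8mers (q = 0.343) and 3.79 with 4 or more libraries as the limit (q = 0.2498; Fisher's exact tests), none of which passed. For miR-128 the counts were 6 of 18 near and 20 of 65 elsewhere, and for miR-135a 5 of 24 near and 12 of 46 elsewhere (Fisher's exact test, q = 1 for each). miR-137 and miR-218 had 3 and 1 near positions, too few to compare.

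Near matches lay in 3′ UTRs more often than matches elsewhere for the 2 families with the highest near shares. For miR-204, 87.8% of near positions (36 of 41) and 63.6% of the others (28 of 44) were in a 3′ UTR (odds ratio 4.05, 1.23 to 15.9; Fisher's exact test, p = 0.0122, q = 0.0448 over 5 families). For miR-135a the shares were 83.3% (20 of 24) near and 52.2% (24 of 46) elsewhere (odds ratio 4.49, 1.23 to 20.9; Fisher's exact test, p = 0.0179, q = 0.0448). The miR-135a call was lost with 1 position per gene (odds ratio 4.39, q = 0.0656) and without windows that hold a frequent family (4.30, q = 0.0595), and the miR-204 call among 8mers alone (3.58, q = 0.417; Fisher's exact tests). For miR-128 the shares were 77.8% near (14 of 18) and 70.8% elsewhere (46 of 65), which did not pass (odds ratio 1.44, 0.383 to 6.78; Fisher's exact test, q = 0.767).

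As families, none passed the test of 3′ UTR share against other exonic positions. The share was 72.3% for miR-128 (60 of 83), 62.9% for miR-135a (44 of 70), 66.7% for miR-137 (20 of 30), 75.3% for miR-204 (64 of 85) and 66.7% for miR-218 (20 of 30), against 66.6% of other exonic positions and 66.7% of all exonic positions, with q from 0.527 to 1 (two-sided Fisher's exact tests). Coding sequence held 18 miR-128, 22 miR-135a, 8 miR-137, 17 miR-204 and 8 miR-218 positions, and 5′ UTRs held 3 of the 294 members. With only 10 nt searched on either side, the miR-204 share was 44 of 50, with an odds ratio of 3.68 (Fisher's exact test, q = 0.00399). Within 3′ UTRs the median member lay 968 nt into a UTR of median length 2581 nt, beside 963 nt and 2636 nt for other exonic positions.

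The base after the match, an A in an 8mer, went with place over the 5 families pooled, while no family passed alone. The pooled test mixes families that differ in 8mer share and near share, so it cannot tell place from family. Over the 5 families, 50.6% of near matches (44 of 87) and 29.7% of the others (63 of 212) were 8mers (odds ratio 2.41, 1.40 to 4.17; Fisher's exact test, p = 0.000864). Without miR-204 the shares were 37.0% near (17 of 46) and 26.2% elsewhere (44 of 168), with an odds ratio of 1.65 (0.771 to 3.46; Fisher's exact test, p = 0.196). Among families alone, miR-204 had 27 of 41 near and 19 of 44 elsewhere, and miR-128 had 9 of 18 near and 14 of 66 elsewhere (Fisher's exact test, q = 0.125 for each). For miR-135a the shares were close, at 25.0% near (6 of 24) and 23.9% elsewhere (11 of 46), with an interval of the odds ratio from 0.275 to 3.77. Counted over all places, 8mers made up 54.1% of miR-204 matches, 43.3% of miR-137, 27.4% of miR-128, 26.7% of miR-218 and 24.3% of miR-135a matches.

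**Figure D4:**
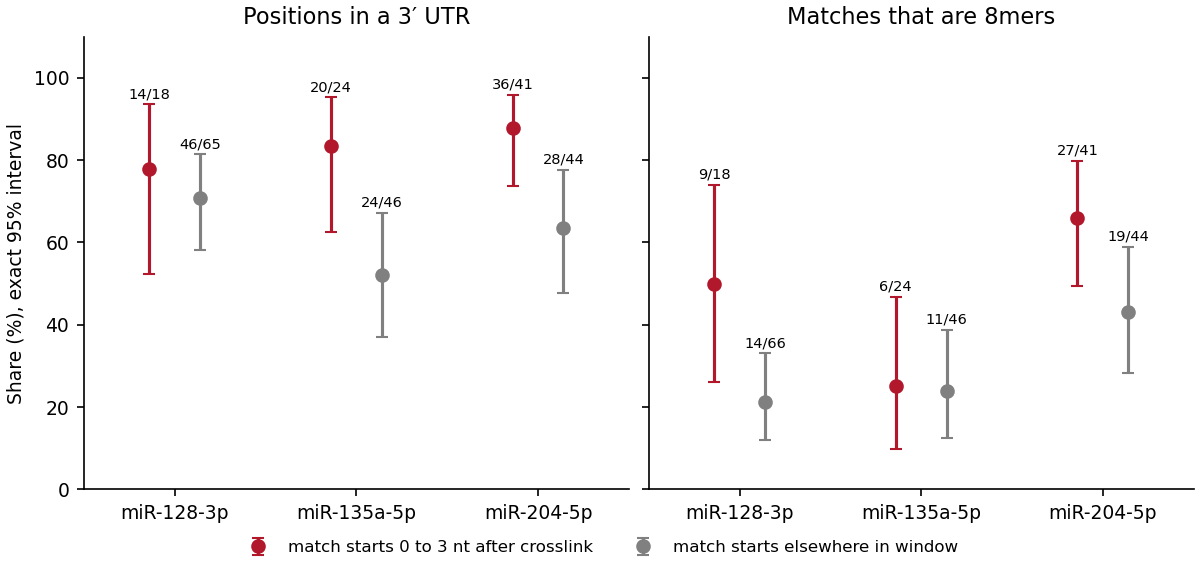
Share of positions in a 3′ UTR (left) and of matches that are 8mers (right), in percent with exact 95% intervals and counts, for near matches (red) and matches elsewhere in the window (grey) of the 3 families with more than 3 near matches. Near positions are higher in 3′ UTR share for miR-135a (83.3% against 52.2%) and miR-204 (87.8% against 63.6%), and the 8mer share of miR-135a is 25.0% against 23.9%.

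miR-135a had the next highest near share. Its near position in 5 libraries was in the 3′ UTR of Foxn3, a forkhead repressor, and those in 4 libraries were in Casz1, a zinc finger factor of retinal progenitors, Ercc6, a factor of transcription-coupled repair, and Smarca1, an ISWI chromatin remodelling ATPase. In these 27 nt base 7 is the crosslink and the match is in capitals.
Foxn3 site of miR-135a: aggagattgAAGCCATagaaactcata
Casz1 site of miR-135a: ggactatAAGCCATtgctagctcatct
Ercc6 site of miR-135a: tctgaatAAGCCATagctatgtatttt
Smarca1 site of miR-135a: catttatAAGCCATgtgtaagtagata

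In Casz1, Ercc6 and Smarca1 the match started 1 nt after the crosslink, and in Foxn3 3 nt after it, the only miR-135a match at that start. The crosslinks were at 148954445 on chromosome 4 in Casz1 (ENSMUSG00000028977.16), at 32580404 on chromosome 14 in Ercc6 (ENSMUSG00000054051.7), at 47810380 on chromosome X in Smarca1 (ENSMUSG00000031099.16) and at 99196034 on chromosome 12 in Foxn3 (ENSMUSG00000033713.12), 233 nt into its 3′ UTR. None of the 4 windows held a match of a frequent family. A deposited miR-216 match of the same score lay within 15 nt of the Foxn3 crosslink at 99196034. The same miR-135a match of Foxn3, an 8mer, was also in the windows of crosslinks at 99196015 and 99196013, both after it and in 2 libraries each, so this 1 match gave 3 of the 70 miR-135a positions. The Foxn3 3′ UTR held a miR-204 7mer as well, starting 1 nt after a crosslink at 99192870 in 2 libraries. Other recurrent miR-135a positions lay farther from the match: those of Dzip3 (5 libraries), an RNA-binding ubiquitin ligase, and Akap6 (4 libraries), a kinase anchoring protein, both had the match before the crosslink, at -15, and that of Dzip3 had a miR-15/16 match beside the crosslink.

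In miR-128 members the crosslink often fell inside the match. Its most frequent start was -3, with 21 of 84 matches, 8 of them in 3 or more libraries, so that the crosslinked T was base 4 of the match CACTGTG, opposite guide base 5. At 3 more it was base 6. The other sites have fewer or no T inside: 3 miR-135a matches and 3 miR-137 matches covered the crosslink, and 0 of miR-204 and miR-218, whose sites hold no T. Positions of this kind in all 5 libraries were in Btg2, an antiproliferative protein that recruits deadenylases, Smad5, a transducer of BMP signals, and Xrcc6, the Ku70 subunit of DNA end joining. In the first 3 sequences here base 10 is the crosslink, and in that of Dicer1, the nuclease that cuts microRNA precursors, it is base 7.
Btg2 site of miR-128: ctcagtCACTGTGcaatagtcccagga
Smad5 site of miR-128: ctagttCACTGTGccttgtccttagga
Xrcc6 site of miR-128: ccacctCACTGTGccttactctgtgaa
Dicer1 site of miR-128: taattttttgCACTGTGactataatac

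What follows the crosslinked T in these sequences is also the site of other microRNAs. In Smad5 and Xrcc6 the 7 bases after it are GTGCCTT, which as background is the site of miR-124; miR-124 was not among the 17 frequent families searched. GTGCCTT was the most frequent 7mer at that place over all exonic windows, with 337, and followed the crosslink at 5 of the 21 miR-128 matches that start at -3 (Eif1ad, Lonrf1, Smad5, Tbc1d32 and Xrcc6). In Btg2 the 7 bases are GTGCAAT, the site of miR-25/92, as at 2 more of the 21 (Hipk3 and Rsbn1). In all, 6 of the 21 had a match of a searched frequent family starting 1 nt after the crosslink. Of the 6 miR-128 matches that start at 4 nt, 4, among them those of Dicer1, Epb41l2 and Madd, overlapped TTGCACT, the site of miR-130, which started 1 nt after the crosslink, and of the 6 that start at 3 nt, 4 (Mybl1, Pank1, Timm29 and Txnip) overlapped TGCACTG at the same place. In the windows of Mybl1, Pank1, Timm29 and Txnip the miR-130 site started on the crosslinked T itself. Followed by A, and so also miR-27 sites, were 9 of the 18 near miR-128 matches and 14 of the 66 others. Which microRNA was bound at such a position was not measured here. The crosslinks lay at 134076331 on chromosome 1 in Btg2 (ENSMUSG00000020423.6), 56738804 on chromosome 13 in Smad5 (ENSMUSG00000021540.16), 82040050 on chromosome 15 in Xrcc6 (ENSMUSG00000022471.14) and 104690360 on chromosome 12 in Dicer1 (ENSMUSG00000041415.10), all in 3′ UTRs. The other named miR-128 positions in 5 libraries, in Shoc2, a scaffold of Ras signalling, and Zfp36l1, a protein that promotes decay of messages with AU-rich elements, had the match before the crosslink, at -12 and -13. That of Shoc2 had a miR-15/16 match beside the crosslink, and the Zfp36l1 match was followed by A and so was also a miR-27 site.

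Many windows held a second seed match. Those that also held a match of a frequent family numbered 41 of 83 for miR-128, 14 of 70 for miR-135a, 8 of 30 for miR-137, 11 of 85 for miR-204 and 6 of 30 for miR-218, beside 29.8% of other exonic windows. These counts leave out miR-124. Taking positions in 3 or more libraries, and as beside the crosslink a match of the 17 frequent families or GTGCCTT that starts from -1 to 3 nt, 14 of 23 miR-204 positions had only their own match beside the crosslink, 6 only a frequent one and 3 neither. For miR-128 these counts were 1, 12 and 8 of 26, with both at 5 more. For miR-135a they were 5, 6 and 6 of 17, for miR-137 1, 5 and 4 of 10 and for miR-218 0, 1 and 5 of 6. With or without their own, a frequent match was beside the crosslink at 65.4% of these miR-128 positions (17 of 26), 35.3% of miR-135a (6 of 17), 50% of miR-137 (5 of 10), 26.1% of miR-204 (6 of 23) and 16.7% of miR-218 (1 of 6), against 41.1% of other exonic positions in 3 or more libraries (1297 of 3157). These counts were set up after the data were seen and have no test.

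**Figure D5:**
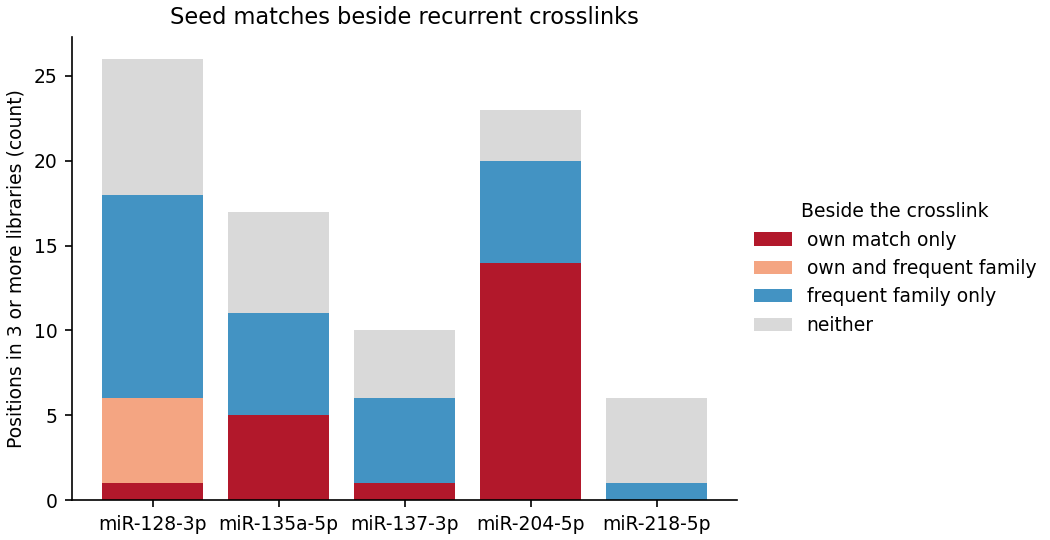
Positions in 3 or more libraries (y axis, count) of each family, split by which match starts beside the crosslink: the family's own (0 to 3 nt), that of 1 of 17 frequent families or GTGCCTT (-1 to 3 nt), both or neither. Of the 23 miR-204 positions 14 had only their own match there, against 1 of 26 for miR-128, 5 of 17 for miR-135a, 1 of 10 for miR-137 and 0 of 6 for miR-218.

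Recurrent miR-137 positions mostly had the match away from the crosslink. In 5 libraries were Chd7, a chromodomain remodeller, with the match at -19, and Strbp, a double-stranded RNA-binding protein, with the match at -12 in coding sequence. In 4 libraries were Neurod1, a proneural factor, with an 8mer at -14, Wsb1, a ubiquitin ligase adaptor, with the match at 11 nt, and the zinc finger genes Zfp704, at -7, and Zfp386, at -5. Frequent matches beside the crosslink were those of miR-181 and miR-23 in Chd7, miR-9 in Wsb1 and Zfp386 and miR-181 in Zfp704. The Chd7 and Neurod1 sites show the distance, with the crosslink at base 21.
Chd7 site of miR-137: cAGCAATAatcaggcagctgttgaatg
Neurod1 site of miR-137: atcacaAGCAATAattaggatctatgc

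miR-218 had no position in more than 3 libraries and 1 near match. Its most frequent start was 5 nt after the crosslink, with 4 matches, of which 3 were in 3 libraries: those of Diaph2, a formin, Opn3, an opsin made outside photoreceptors, and Pik3ca, the catalytic subunit of a phosphoinositide kinase. The sites of Diaph2 and Pik3ca share more than the match, with the crosslink at base 7.
Diaph2 site of miR-218: ctattctgccaAAGCACAttatagaca
Pik3ca site of miR-218: cagaactgccaAAGCACAtctacaaca

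In both, and also in Opn3, the crosslinked T was followed by GCCAAAG, so that 3 of the 4 matches at 5 nt had it. GCCAAAG was at that place in 161 of 10949 exonic windows, and ACCAAAG, the miR-9 site, was there in 162. The Opn3 position also had a miR-182 match beside the crosslink. Positions in 3 libraries were also found in Ern1, the sensor kinase IRE1 of endoplasmic reticulum stress, with the match at 6 nt, Lhfp, at 9 nt, and Mxi1, a Myc antagonist, at -7 in coding sequence.

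Most genes had a single member position, 236 of 262, and 26 had more. The deposited table of miR-216 matches, which the study is about, had an entry of the same score within 15 nt of 10 of the 294 members (3.40%), against 2.71% of other exonic positions (289 of 10655); among the 10 were the Foxn3 position of miR-135a and the Strbp position of miR-137 in 5 libraries. This comparison has no test. Members of 2 or more families were found in 14 genes, and 5 genes had separate matches of 1 family. Txnip, a thioredoxin-binding protein, had 3 families: the crosslink at 96561150 on chromosome 3, in 4 libraries, had a miR-128 match at 3 nt and a miR-135a match at -18, and that at 96560871, in 2 libraries, had a miR-204 match at 1 nt. Rtn4, the axon growth inhibitor Nogo, had 3 member positions in the same coding exon, with miR-135a matches at 1 nt (3 libraries) and -10 (2 libraries) and a miR-128 8mer at 1 nt (3 libraries). Dicer1 had a miR-204 8mer at 1 nt after a crosslink at 104687964 in 2 libraries, besides its miR-128 position. Malat1, a nuclear noncoding RNA, had 5 member positions in 2 libraries each, 3 of miR-135a and 2 of miR-204, none near. Cpsf6, a subunit of a pre-mRNA cleavage factor, had miR-135a 8mers at 1 nt and 6 nt after crosslinks in 2 libraries each. Madd, a Rab exchange factor, had 2 miR-128 matches, and the noncoding gene 1700020I14Rik had 2 miR-137 matches, none near. Neurod1 had a miR-135a match in coding sequence besides its miR-137 match, Tcf12 a miR-137 8mer at -9 besides its miR-204 site, Ncoa2, a nuclear receptor coactivator, a miR-135a match at 1 nt and a miR-137 match, Kit, a receptor tyrosine kinase, a miR-137 and a miR-218 8mer both at -8, and Rnf217, a ubiquitin ligase, a miR-135a and a miR-204 match both at -8.

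Gene lists drawn from general knowledge are given by counts only. Of 40 neural transcription factors, 9 had a member (22.5%, 15 of 286 positions or 5.24%): Neurod1, Neurod4, Sox4, Sox11, Tcf4, Tcf12, Rorb, Foxn3 and Casz1. Over all genes with an exonic window, 6.03% had a member (262 of 4343), and 2.69% of exonic positions were members. Of 33 genes of RNA binding and the microRNA pathway, 8 had a member (24.2%, 10 of 251 positions or 3.98%), among them Qk, Rbfox2, Cnot6 and Btg2, Tnrc6b, a partner of Argonaute, with a miR-204 8mer at 1 nt in 2 libraries, Tnrc6a, with a miR-128 8mer at 3 nt in 2 libraries, and Dicer1, described above. Genes with more crosslink positions have more chances of holding a member, so the share by positions is the closer comparison. TGF-beta and BMP signalling had 3 of 17 genes (3 of 64 positions, 4.69%), Acvr1b (miR-204 at 1 nt, 4 libraries), Bmpr2, a BMP receptor (miR-135a at 1 nt, 2 libraries), and Smad5. Chromatin regulators had 2 of 26 genes, Chd7 and Ncoa2 (3 of 135 positions, 2.22%). Synapse genes had 1 of 22, Cadm2 (1 of 49 positions, 2.04%), and axon guidance genes 1 of 18, Ncam1 (1 of 52 positions, 1.92%). Wnt signalling had 0 of 12 genes and 0 of 62 positions, and the cell cycle 0 of 14 genes and 0 of 61 positions.

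Targets described earlier for a microRNA were looked up for a member of the same family. Of those with an exonic window, 0 of 8 had one for miR-128, 0 of 7 for miR-135a, 1 of 8 for miR-137, 2 of 4 for miR-204 and 0 of 11 for miR-218. Over all 4343 genes with an exonic window, a member of the family was in 1.84% for miR-128, 1.38% for miR-135a, 0.645% for miR-137, 1.84% for miR-204 and 0.668% for miR-218. The miR-204 genes were Bcl2, the inhibitor of apoptosis, with an 8mer at 4 nt after a crosslink in 2 libraries, and Sox4, a SoxC factor of neuronal differentiation, whose 1 match lay 14 nt after a crosslink in 3 libraries and before another in 2 libraries. The Bcl2 crosslink was directly followed by GCCAAAG, which was at that place in 161 of 10949 exonic windows. The miR-137 gene was Tcf4, an E protein, with an 8mer at -14 in coding sequence in 2 libraries. A gene without a member may still be bound, since the table holds only positions shared by at least 2 libraries.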

How the data were processed

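PAR-CLIP crosslinks of neonatal mouse retina were analysed. Per the submitters' processing notes, the mm10 build was used with bedtools, STAR and CASAVA 1.8.2; the crosslink caller is not given in the sources used here. Per the file headers, the deposited score is how many samples share a crosslink, from 2 to 5. Positions were placed on GENCODE M21 exons of the same strand, in the order 3′ UTR, coding, 5′ UTR, noncoding, with UTRs from protein-coding transcripts. Windows came from spliced transcripts; all 10989 exonic crosslinks with a transcript base were on T, and a full window was missing at 43 exonic positions. Fisher's exact tests, two-sided, compared shares, and sides were tested against 0.5 with exact binomial tests. Benjamini-Hochberg adjustment was over the 5 families or 10 pairs at 0.05, and intervals were Clopper-Pearson (Python 3.11.15, scipy 1.17.1). The Fisher test of shares and the search for match starts were checked on simulated data, and the binomial test was not. Members, lists and families were chosen with earlier results of these data known.

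The 42 genes named by rule were, per family, the 6 with the highest score (ties by near match, 3′ UTR, 8mer and symbol), up to 6 with separate matches of 1 family, up to 10 with 2 or more families, and earlier described targets with a member of the same family. Other genes were named from lists or after their values were seen. A few members are not reported here.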

Additional observations from a re-analysis of the deposited data

How the results depend on the processing

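Of 213 alternatives, 167 kept direction and side of the threshold, 32 turned direction, 10 passed the threshold anew and 4 lost it; the share of miR-204 matches after the crosslink kept its call in every alternative run for it. The cause of a change was not tested unless named. With 1 position per gene, the highest in libraries is taken by construction in genes with many other positions, and the odds ratio of recurrence was 0.586 for miR-128 (turned and past the threshold), 0.481 for miR-135a, 0.676 for miR-137, 0.491 for miR-204 and 0.317 for miR-218. In the same setting the side share of miR-135a was 66.7%, its 3′ UTR odds ratio by place 4.39, that of the miR-218 family 0.946 and the 8mer odds ratio of miR-137 1.35 (also 1.35 with positions within 20 nt merged). Merging gave side shares of 65.5% for miR-128 and 66.1% for miR-135a, both past the threshold. With 10 nt searched the side share was 88.9% for miR-128, 75.8% for miR-135a and 12.5% for miR-218, the 3′ UTR odds ratio 1.004 for miR-135a and 3.68 for miR-204, and the recurrence odds ratio 1.018 for miR-204. Without members that hold a frequent family, recurrence was 0.742 for miR-128 and 0.699 for miR-137, by place 0.607 for miR-128 and 1.14 for miR-135a, the 3′ UTR odds ratio 0.725 for miR-137 and 0.836 for miR-218, by place 0.883 for miR-128 and 4.30 for miR-135a, and the side share of miR-135a 72.2%. With such windows also left out of the other positions, a setting chosen after the data were seen, recurrence was 0.931 for miR-128 and 0.877 for miR-137, and the 3′ UTR odds ratio 1.06 for miR-135a, 0.789 for miR-137 and 0.910 for miR-218. With 8mers only, recurrence was 0.713 for miR-137 and by place 4.49 for miR-135a, and the 3′ UTR odds ratio 0.941 for miR-128, 1.63 for miR-135a and by place 3.58 for miR-204. With 4 or more libraries, recurrence was 1.23 for miR-204 and by place 0.780 for miR-128 and 2.08 for miR-135a. With starts of 0 to 6 nt, recurrence by place was 0.963 for miR-128 and 12.2 for miR-218. In 3′ UTRs alone it was 0.754 for miR-128, and at positions in 3 or more libraries the side share of miR-135a was 41.2%. Without members followed by GTGCCTT, also chosen after the data were seen, recurrence of miR-128 was 0.993. Without members that hold a miR-27 match, chosen likewise, the miR-128 side share was 59.0%, and over clear matches alone the near odds ratio of miR-204 over miR-128 was 2.16. No paired analysis was possible because the table pools its libraries with no value for each, which also bars leaving out a library. Families of 30 positions give wide intervals.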
